A study of Mus musculus with 9 samples.

Results

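The comparison described here set AML12 cells given free fatty acids (FFA) against AML12 cells kept in medium alone (NC), across all genes. AML12 is an immortalised mouse hepatocyte line derived from a mouse that carried a human TGF alpha transgene, so both groups share that background. Of the 9 libraries of the series, the 6 without sinomenine were used: 3 of cells in DMEM/F12 medium and 3 of cells in DMEM/F12 with free fatty acids. The cells had reached confluence before fatty acids were added, according to the series' design text. Which fatty acids were given, at what concentration, and for how many hours either group was cultured, are not given in the labels. All 11673 genes of 30350 with a mean of at least 1 FPKM (fragment counts divided by the length of the gene and the size of the library) over the 6 libraries were members.

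Long-chain fatty acids enter hepatocytes, are joined to coenzyme A, and are then burned in mitochondria and peroxisomes, stored as triglyceride in lipid droplets, or built into membranes and lipoproteins. Many genes of oxidation and storage are targets of the PPAR nuclear receptors, which bind fatty acids. Cholesterol synthesis genes are switched on by SREBP2, a membrane-bound transcription factor that the Insig proteins hold in the endoplasmic reticulum while sterol is plentiful. Growth factors of the EGF family act through ERK kinases on a first wave of immediate early genes and on cyclin D1, which takes cells into DNA replication.

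The depth implied by the steps of the FPKM values was 58862534 to 64460028 reads in NC and 43201346 to 67707660 reads in FFA. At these depths a gene of 2000 bases without any read could still stand at 0.0222 to 0.0347 FPKM (3 reads), a limit that covers counting error only. The groups separated along the first principal component, which held 60.8% of the variance, with NC libraries at -11.57 to -11.02 and FFA libraries at 10.82 to 11.98. The median absolute log2 difference was 0.0478 to 0.0574 between libraries of 1 group and 0.101 to 0.119 between libraries of different groups. Mitochondrially encoded genes took 3.94% to 4.09% of reads in NC and 4.55% to 4.61% in FFA. Hepatocyte identity was only partly visible: 8 of 9 hepatocyte markers reached 1 FPKM, while Ahsg (fetuin A) was at 0 in 5 of 6 libraries and the adult liver enzymes Cps1, Otc, Ass1, Arg1, Cyp2e1 and G6pc stayed below 1 FPKM. The summed hepatocyte markers lay at 1376 to 1400 FPKM in NC and at 1891 to 1894 FPKM in FFA, and albumin itself went from 198 ± 1.03 to 271 ± 0.631 FPKM. No marker of endothelial cells (0 of 11) or lymphocytes (0 of 9) reached 1 FPKM. Of the macrophage markers 2 of 12 did, summing to 6.62 to 8.06 FPKM in NC and 4.95 to 6.42 FPKM in FFA, with Ptprc (CD45) reaching 0.0187 FPKM at most. Of the stellate cell and fibroblast markers 2 of 13 did (Vim and Des), summing to 398.7 to 410.9 FPKM in NC and 392.7 to 400.1 FPKM in FFA. Of the adipocyte markers 1 of 9 did (Cidec), with sums of 1.98 to 2.13 FPKM in NC and 1.79 to 2.47 FPKM in FFA. In bulk RNA, fewer cells of a kind and less RNA per cell cannot be told apart.

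In all, 4014 genes (34.4%) changed at an adjusted p below 0.05 in limma's moderated test. Of these, 2006 (17.2%) rose and 2008 (17.2%) fell. Most changes were small. The median absolute log2 fold change of the changed genes was 0.20, a 1.15-fold change, and the 10% with the largest changes passed 0.46. Only 54 genes (0.463%) changed at least 2-fold, 17 up (0.146%) and 37 down (0.317%). At 1.5-fold the counts were 78 up (0.668%) and 151 down (1.29%). The 3 NC and 3 FFA values did not overlap in 5710 genes (48.9%). In 225 tested genes 1 group mean lay below the filter of 1 FPKM, and 87 of these were called (34 rose and 53 fell), calls that the filter itself favours. Below, values given with ± are means and standard deviations in FPKM (n = 3 libraries per group). Log2 fold changes are given ± the standard error, on the log2(FPKM + 1) scale, which understates the change of low genes. The labels do not state that the 3 libraries of a group came from separate cultures. The p-values therefore cover the spread among these libraries alone, and that spread may be technical.

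**Figure D1:**
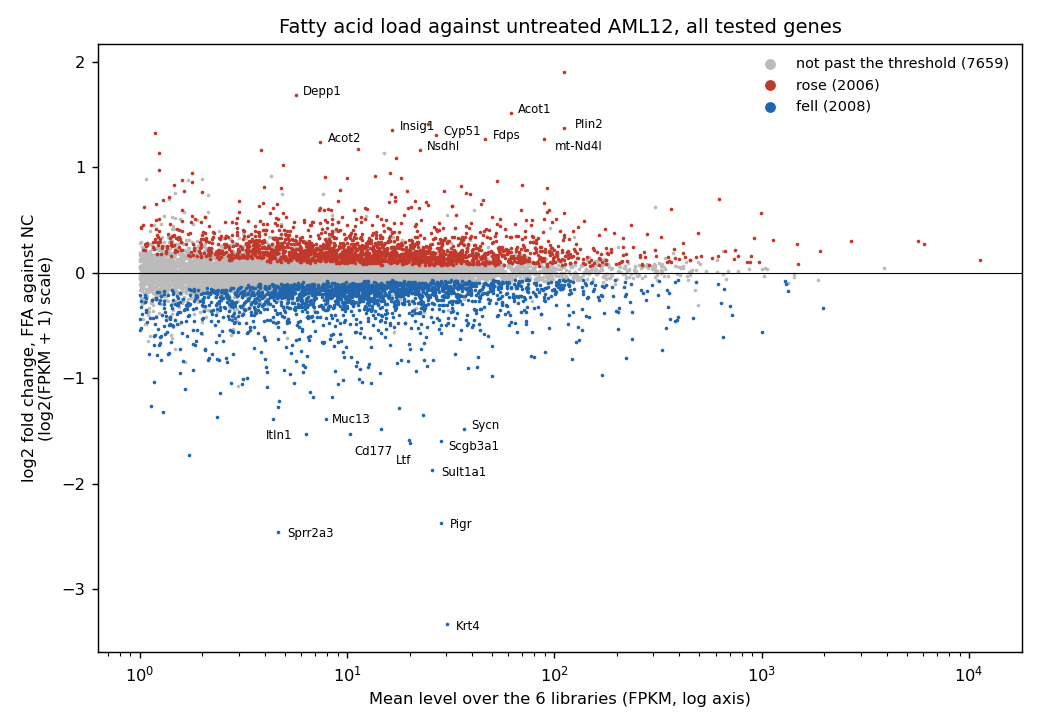
Each point is 1 of 11673 tested genes, with its mean level over the 6 libraries in FPKM on a logarithmic horizontal axis and its log2 fold change, FFA against NC, on the vertical axis. Red points rose (2006), blue points fell (2008) and grey points did not pass the threshold; symbols mark 9 of the 10 highest and the 10 lowest changes chosen for naming, from Depp1 at 1.68 to Krt4 at -3.33.

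Changes were called more often among highly expressed genes. Of genes with a mean of 1 to 5 FPKM 21.4% were called, against 37.5% at 5 to 20 FPKM, 47.4% at 20 to 100 FPKM and 52.6% above. Protein-coding genes were called in 37.1% of 10148 cases and long noncoding RNAs in 21.2% of 430, of which 36 rose and 55 fell. Gene groups differed in direction far more than the whole, as the plot of shares by list shows. At its top stood cholesterol synthesis and fatty acid oxidation, and at its foot immediate early genes, growth factor signalling genes, clock genes and chemokines.

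**Figure D2:**
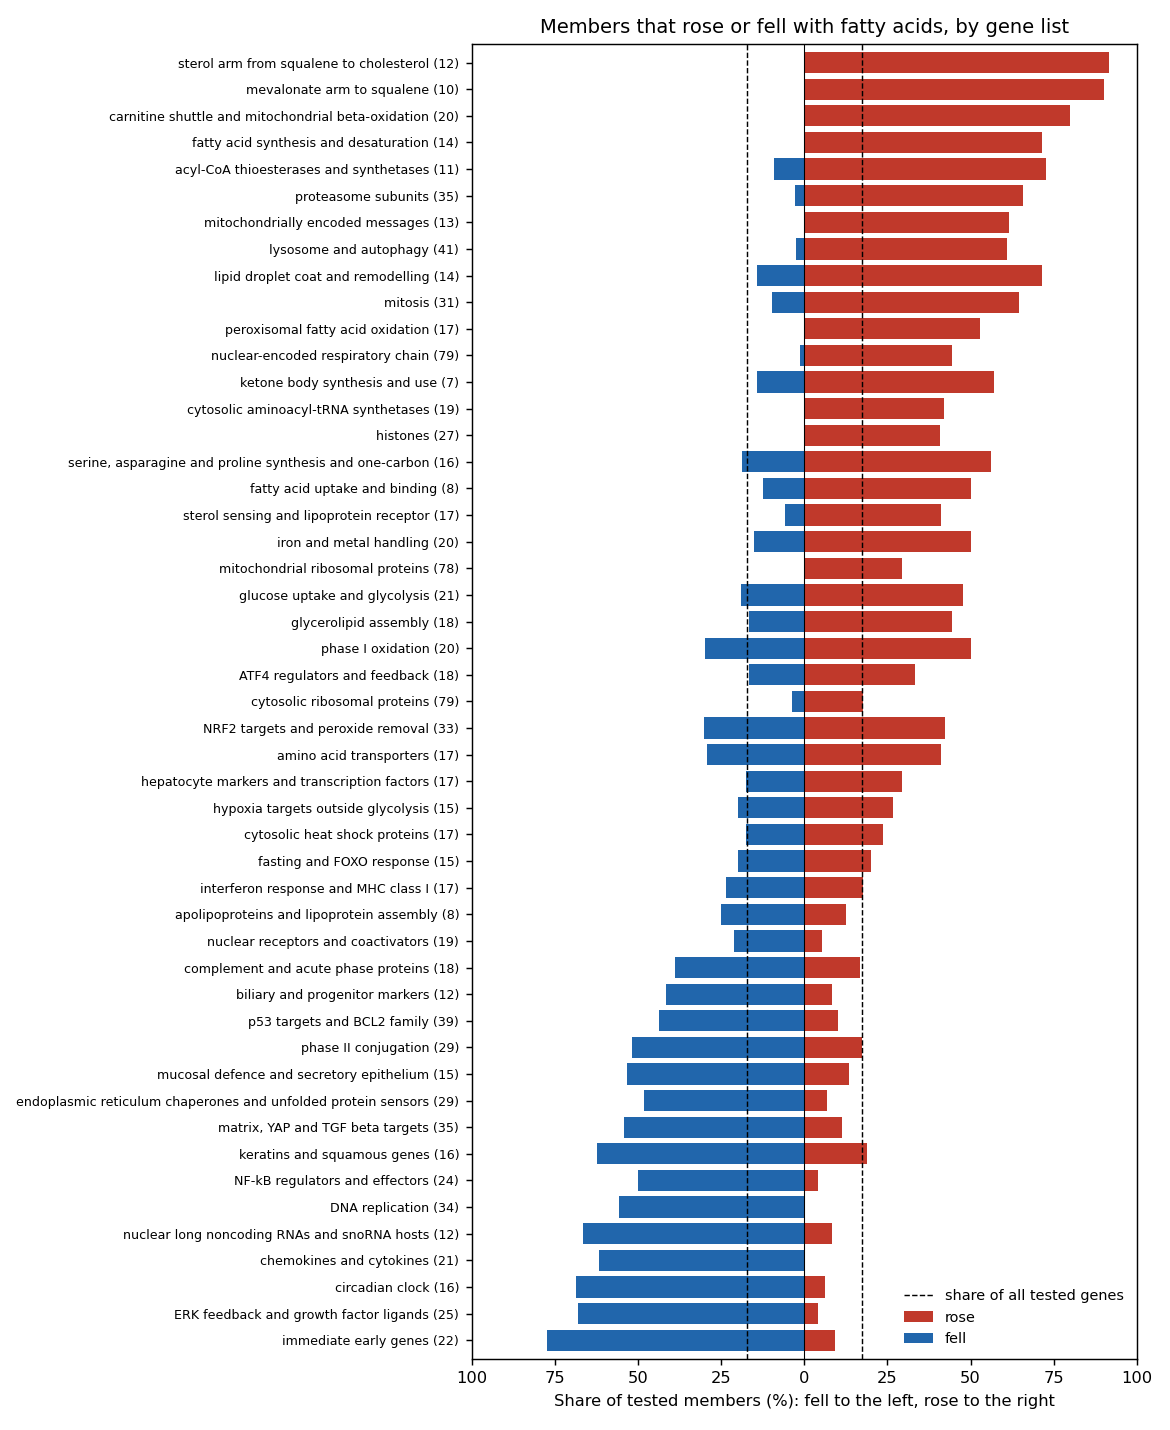
Each bar pair gives, for 1 gene list, the percentage of its tested members that rose (red, right) and that fell (blue, left), with the number tested in brackets. The dashed lines mark the share of all tested genes that rose and that fell, 17.2% each; in the sterol arm 11 of 12 rose, and of the immediate early genes 17 of 22 fell.

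Cholesterol synthesis genes rose along nearly its whole length. In the mevalonate arm, from acetyl-CoA to squalene, 9 of 10 tested members rose and 0 fell, with a median log2 fold change of 0.73, against a median of 0.0037 over all tested genes. In the arm from squalene to cholesterol, 11 of 12 tested members rose and 0 fell, with a median log2 fold change of 0.47. Because the size differed between steps, the levels are given in pathway order. Hmgcs1, the cytosolic synthase that makes HMG-CoA, stood at 21.8, 21.2 and 21.2 FPKM in the NC libraries and 38.5, 36.5 and 37.001 FPKM in the FFA libraries. The FFA libraries lay above every NC library (log2 fold change 0.77 ± 0.0279, adjusted p = 4.39e-06).

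The promoters of 3 of these genes are shown because the sterol genes moved together and differed in which promoter letters they carried. They run from 250 bases before to 50 bases after the start site, 5′ to 3′ on the gene's strand, from RefSeq on GRCm38.p6: Hmgcs1 at chr13:119690101-119690400 on the plus strand, Nsdhl at chrX:72918271-72918570 on the plus strand and Cyp51 at chr5:4104648-4104947 on the minus strand. Capitals mark the sterol regulatory element letters TCACNCCAC and the CCAAT box, each on either strand (ATTGG is CCAAT on the other strand).
Hmgcs1: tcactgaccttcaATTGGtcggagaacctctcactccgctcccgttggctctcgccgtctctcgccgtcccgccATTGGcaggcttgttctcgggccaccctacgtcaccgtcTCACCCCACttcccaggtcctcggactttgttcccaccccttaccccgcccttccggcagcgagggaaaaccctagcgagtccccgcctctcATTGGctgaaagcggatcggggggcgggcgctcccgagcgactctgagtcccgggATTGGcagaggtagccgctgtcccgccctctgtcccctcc
Nsdhl: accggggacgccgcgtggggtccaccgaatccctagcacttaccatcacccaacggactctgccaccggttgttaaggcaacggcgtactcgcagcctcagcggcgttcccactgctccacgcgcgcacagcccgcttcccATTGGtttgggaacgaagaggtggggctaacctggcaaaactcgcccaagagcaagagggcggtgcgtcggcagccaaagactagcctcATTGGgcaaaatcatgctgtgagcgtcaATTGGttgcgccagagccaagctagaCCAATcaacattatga
Cyp51: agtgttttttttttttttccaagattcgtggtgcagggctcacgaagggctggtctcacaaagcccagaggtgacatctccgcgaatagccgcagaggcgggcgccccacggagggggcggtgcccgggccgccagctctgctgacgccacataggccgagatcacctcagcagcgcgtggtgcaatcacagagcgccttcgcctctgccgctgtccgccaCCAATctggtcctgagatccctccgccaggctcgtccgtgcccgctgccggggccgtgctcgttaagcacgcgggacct

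Of the 20 sterol synthesis genes that rose, 15 matched the promoter table, with 18 promoters. The letters TCACNCCAC were in 1 of the 18, that of Hmgcs1, and in 1.22% of 10655 promoters of tested genes. CCAAT, the letters bound by NF-Y, a partner of SREBP, was in 14 of the 18 (77.8%), against 38.01% of the promoters of tested genes. These matches are letters in a window of 300 bases and were not tested as binding sites. In the printed promoters no matches of the 2 motifs share a base.

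Idi1, which isomerises the first isoprene unit, was at 6.74, 6.85 and 6.44 FPKM in NC and 13.4, 13.3 and 13.3 FPKM in FFA (log2 fold change 0.90 ± 0.0293, adjusted p = 2.91e-06), with every FFA library above every NC library. Fdps, which makes farnesyl diphosphate, the branch point to sterols and to protein prenylation, was at 27.01, 26.1 and 27.5 FPKM in NC and 68.3, 65.03 and 64.7 FPKM in FFA (log2 fold change 1.26 ± 0.0308, adjusted p = 9.46e-07). It had the largest rise of its arm. Fdft1, squalene synthase, which commits farnesyl groups to sterols, rose from 10.6 ± 0.363 to 21.4 ± 0.382 FPKM (log2 fold change 0.95 ± 0.031, adjusted p = 2.96e-06). Ggps1, which draws the same farnesyl groups to geranylgeranyl diphosphate for prenylation, was at 6.88, 6.55 and 6.33 FPKM in NC and 7.05, 6.32 and 6.81 FPKM in FFA and the groups overlapped (log2 fold change 0.026 ± 0.0458, adjusted p = 0.693). It was the single tested member of the mevalonate arm that did not pass.

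Beyond squalene, the first enzymes Sqle and Lss rose from 34.3 ± 0.215 to 54.6 ± 0.797 FPKM and from 3.21 ± 0.0771 to 6.38 ± 0.0646 FPKM. Cyp51, the lanosterol demethylase, stood at 15.7, 14.9 and 14.8 FPKM in the NC libraries and 38.997, 38.1 and 39.3 FPKM in the FFA libraries, with no overlap between groups (log2 fold change 1.30 ± 0.0285, adjusted p = 7.27e-07). Msmo1 and Nsdhl, which remove the next methyl groups from the sterol ring, rose from 12.4 ± 0.0463 to 24.05 ± 0.0613 FPKM and from 13.4 ± 0.211 to 31.3 ± 1.63 FPKM. The last steps moved less: Dhcr7 rose from 8.31 ± 0.518 to 11.7 ± 0.437 FPKM and Ebp, the sterol isomerase, from 82.01 ± 1.27 to 89.9 ± 2.53 FPKM. Lbr, a sterol reductase that is also the lamin B receptor, went from 11.2 ± 0.664 to 11.8 ± 0.144 FPKM and did not pass (log2 fold change 0.076 ± 0.042, adjusted p = 0.211).

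**Figure D3:**
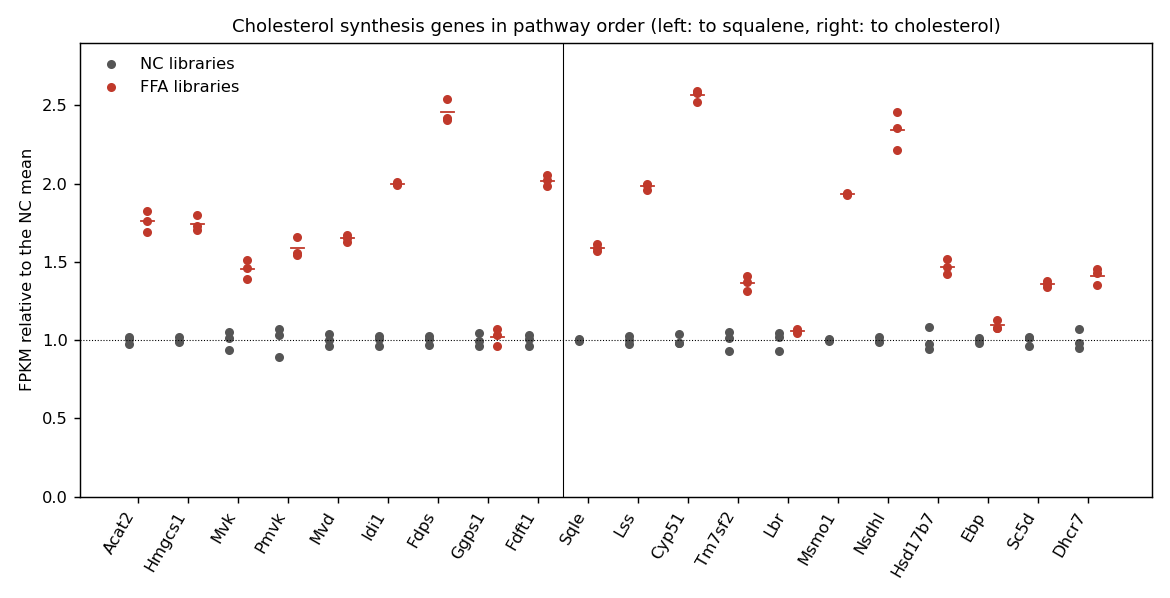
FPKM of each library divided by the mean of the NC libraries (vertical axis, from 0) for 20 of the 22 tested cholesterol synthesis genes in pathway order; dark points are NC libraries, red points FFA libraries, dashes the FFA means. FFA means lie between 1.02 times the NC mean for Ggps1 and 2.56 times for Cyp51, and only Ggps1 and Lbr did not pass the threshold.

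Among the sensors and receptors of the same pathway the rise was selective: 7 of 17 tested members rose and 1 fell, with a median log2 fold change of 0.062. Insig1, the retention protein and itself a target of SREBP2, stood at 8.98, 8.79 and 8.76 FPKM in the NC libraries and 23.5, 25.2 and 24.03 FPKM in the FFA libraries, and the groups lay far apart (log2 fold change 1.36 ± 0.0312, adjusted p = 7.60e-07). Insig2, the isoform that SREBP does not drive, was at 18.96, 17.6 and 16.7 FPKM in NC and 17.8, 17.6 and 18.3 FPKM in FFA, where the groups overlapped (adjusted p = 0.872). Stard4, a cytosolic sterol carrier, rose from 18.5 ± 0.635 to 26.7 ± 0.257 FPKM, and Srebf2, which encodes SREBP2, rose from 91.6 ± 1.85 to 104 ± 3.23 FPKM. Srebf1 was the exception: it went from 69.1 ± 0.778 to 65.6 ± 1.401 FPKM (log2 fold change -0.075 ± 0.023, adjusted p = 0.0426), a call lost on leaving out any library but FFA 2 (adjusted p 0.0682 to 0.136) and after removing trends on length and GC content (0.189). Srebf1 lost its call with no filter on low values (0.0764) and with no variance trend (0.0842) as well.

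Fatty acid oxidation genes rose together. In the carnitine shuttle and mitochondrial beta-oxidation, 16 of 20 tested members rose and 0 fell, with a median log2 fold change of 0.29. Slc25a20, which carries acylcarnitines across the inner membrane, was at 6.95, 6.53 and 6.64 FPKM in NC and 11.7, 11.3 and 11.2 FPKM in FFA (log2 fold change 0.69 ± 0.033, adjusted p = 1.45e-05). Every FFA library exceeded every NC library. Eci2, an isomerase for unsaturated acyl chains, rose from 8.398 ± 0.316 to 13.2 ± 0.405 FPKM and Acaa2, the last thiolase of the spiral, from 50.01 ± 0.821 to 89.9 ± 2.598 FPKM. Rises were larger at entry into the mitochondrion and for long chains than for the short-chain enzyme: Cpt1a went from 37.2 ± 0.33 to 68.9 ± 1.32 FPKM and Acadl from 67.05 ± 1.43 to 118 ± 1.07 FPKM, while Acadm went from 32.3 ± 0.39 to 36.8 ± 0.969 FPKM and Acads from 64.5 ± 2.05 to 71.4 ± 2.34 FPKM. Crat, the acetyl transferase of the carnitine system, went from 16.7 ± 0.572 to 18.4 ± 1.45 FPKM and did not pass.

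In peroxisomes 9 of 17 tested members rose and 0 fell, with a median log2 fold change of 0.12. Crot, which makes the carnitine esters that leave peroxisomes, was at 29.5, 28.7 and 28.3 FPKM in NC and 49.9, 47.5 and 49.6 FPKM in FFA, the largest rise of that list (log2 fold change 0.75 ± 0.0279, adjusted p = 4.94e-06). Phyh, which starts the oxidation of branched phytanic acid, rose from 12.9 ± 0.547 to 17.2 ± 0.238 FPKM. Ehhadh, the bifunctional enzyme of the spiral in peroxisomes, did not pass at 1.93 to 2.18 FPKM (adjusted p = 0.172). With no filter on low values 5 members of this list rose in place of 9.

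Among ketone body genes, Oxct1, which uses ketone bodies and is absent from normal hepatocytes, fell from 32.5 ± 0.509 to 26.1 ± 1.35 FPKM (log2 fold change -0.31 ± 0.0379, adjusted p = 0.00111). Slc16a1, the monocarboxylate transporter MCT1, rose from 34.8 ± 0.43 to 44.5 ± 0.961 FPKM, while Bdh1 (1.63 to 1.75 FPKM), which interconverts the circulating ketone bodies, did not pass.

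Among the enzymes that make and split acyl-CoA, 8 of 11 tested members rose and 1 fell, with a median log2 fold change of 0.26, and 2 fell without FFA library 2. Acot1, a cytosolic thioesterase, stood at 32.1, 30.5 and 32.2 FPKM in the NC libraries and 91.1, 91.5 and 93.1 FPKM in the FFA libraries (log2 fold change 1.51 ± 0.0263, adjusted p = 2.42e-07). Acot2, its mitochondrial paralogue, was at 4.19, 3.74 and 4.097 FPKM in NC and 11.3, 10.2 and 11.04 FPKM in FFA (log2 fold change 1.24 ± 0.0497, adjusted p = 6.86e-06). Both had no overlap between groups, and since the genes are close in sequence, reads may have been divided between them. The synthetases moved apart: Acsl3 rose from 44.8 ± 1.41 to 64.02 ± 1.04 FPKM and Acsl4 from 69.3 ± 2.26 to 87.7 ± 1.31 FPKM, while Acsl5 fell from 101 ± 0.614 to 85.1 ± 0.21 FPKM.

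Of the PPAR receptors themselves Ppara (0.544 to 0.369 FPKM) and Pparg (0.847 to 0.599 FPKM) stayed below the filter, and Ppard fell from 5.72 ± 0.334 to 4.83 ± 0.114 FPKM (log2 fold change -0.20 ± 0.0439, adjusted p = 0.0113). Their partner Rxra fell from 18.7 ± 0.58 to 15.8 ± 0.468 FPKM as well. The coactivator Ppargc1a, close to the filter, went from 1.005 ± 0.0247 to 1.51 ± 0.0397 FPKM (log2 fold change 0.32 ± 0.0511, adjusted p = 0.00318). Over nuclear receptors and coactivators 1 of 19 rose and 4 fell, shares near those of all genes in the falling direction and below them in the rising one.

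Storage genes rose with oxidation genes. For the lipid droplet 10 of 14 tested members rose and 2 fell, with a median log2 fold change of 0.20. Plin2, the coat protein that fatty acid stores stabilise, was at 61.2, 61.5 and 60.9 FPKM in NC and 163, 161 and 158 FPKM in FFA (log2 fold change 1.38 ± 0.0195, adjusted p = 8.74e-08). The groups did not overlap and each was narrow. G0s2, the inhibitor of the lipase ATGL, rose from 6.68 ± 0.416 to 9.34 ± 1.001 FPKM, as did Hilpda, a second inhibitor of that lipase, from 8.31 ± 0.562 to 11.03 ± 0.222 FPKM. Pnpla2, which encodes ATGL, fell from 38.2 ± 0.645 to 35.6 ± 0.657 FPKM (log2 fold change -0.099 ± 0.0242, adjusted p = 0.0189), a call lost without NC library 2, NC library 3 or FFA library 1 (0.0567 to 0.0608). Its activator Abhd5 rose from 2.98 ± 0.191 to 3.6997 ± 0.135 FPKM, and the hormone-sensitive lipase Lipe from 2.22 ± 0.11 to 3.81 ± 0.0789 FPKM. Fitm2, which helps droplets bud, fell from 15.4 ± 0.307 to 12.4 ± 0.411 FPKM (log2 fold change -0.29 ± 0.0313, adjusted p = 0.00058).

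Few fatty acid uptake genes were expressed above the filter: 8 of 20 listed were tested, of which 4 rose and 1 fell, and with the filter at 5 FPKM 2 rose. Cd36, the fatty acid translocase, was at 2.12, 1.94 and 1.88 FPKM in NC and 5.96, 5.37 and 5.67 FPKM in FFA (log2 fold change 1.16 ± 0.05, adjusted p = 9.48e-06). Fabp1, the liver fatty acid binding protein, was at 0.394, 0.307 and 0.449 FPKM in NC and 1.59, 1.69 and 2.99 FPKM in FFA (log2 fold change 1.13 ± 0.163, adjusted p = 0.00214), a low level for a protein that is abundant in liver. In both genes all FFA libraries exceeded all NC libraries. Fabp1 passed the filter only through its FFA level, and its call is one that the filter itself favours. Slc27a1, a transport protein with synthetase activity, rose from 5.66 ± 0.254 to 9.17 ± 0.0481 FPKM. Fabp5, the epidermal form, fell from 23.8 ± 0.957 to 20.4 ± 0.803 FPKM, and Slc27a4 (12.8 to 13.2 FPKM) and Vldlr (11.4 to 11.9 FPKM) did not pass.

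Of the fatty acid synthesis and desaturation genes, 10 of 14 tested members rose and 0 fell, with a median log2 fold change of 0.18. The desaturases for polyunsaturated chains, Fads1 and Fads2, rose from 73.8 ± 1.28 to 111 ± 1.02 FPKM and from 115 ± 3.002 to 162 ± 3.35 FPKM. Elovl6, which lengthens palmitate, rose from 6.304 ± 0.369 to 9.35 ± 0.357 FPKM (log2 fold change 0.50 ± 0.046, adjusted p = 0.000281), Acly, the source of cytosolic acetyl-CoA, from 60.5 ± 0.341 to 70.7 ± 1.81 FPKM, and Scd1 from 170.3 ± 2.75 to 193 ± 2.77 FPKM. Fasn, the synthase itself, was at 47.6, 48.3 and 49.1 FPKM in NC and 49.6, 52.1 and 50.6 FPKM in FFA, so that the FFA libraries lay just above the NC libraries, but it did not pass (adjusted p = 0.0708).

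Glycerolipid genes were mixed: 8 of 18 tested members rose and 3 fell, with a median log2 fold change of 0.083. Dgat2, which closes triglyceride synthesis, was at 15.5, 15.1 and 14.9 FPKM in NC and 20.5, 21.6 and 22.1 FPKM in FFA (log2 fold change 0.47 ± 0.0333, adjusted p = 8.46e-05), while Dgat1 went from 15.2 ± 0.936 to 16.2 ± 0.537 FPKM and did not pass. Cept1, the last enzyme of phosphatidylcholine synthesis, rose from 26.3 ± 0.602 to 33.3 ± 0.198 FPKM. Gpd1, which supplies the glycerol backbone from glycolysis, fell from 17.004 ± 0.356 to 12.2 ± 0.493 FPKM (log2 fold change -0.45 ± 0.0343, adjusted p = 0.00012), with Gpat4 (77.2 to 70.1 FPKM) and Agpat2 (40.3 to 36.3 FPKM) falling beside it, the Agpat2 call being lost with no filter on low values (0.0559). Lipoprotein genes were scarcely expressed. Of 20 listed, 8 were tested, and Apob rose from 8.53 ± 0.263 to 9.17 ± 0.0491 FPKM (log2 fold change 0.095 ± 0.0297, adjusted p = 0.0448), a call lost on leaving out any library but NC 2 (0.0979 to 0.124). Apob did not pass with no filter on low values (0.0795) or with the replicate number as a block (0.0723) either. Mttp, the transfer protein that loads Apob with lipid, was at 1.16 to 1.31 FPKM and did not pass. Clu, clusterin, counted with this list, fell from 1202 ± 12.9 to 814 ± 10.04 FPKM, the second largest loss in FPKM of all genes.

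The cell cycle lists split into opposite directions. Among DNA replication genes 0 of 34 tested members rose and 19 fell, with a median log2 fold change of -0.12. Among mitosis and division genes 20 of 31 tested members rose and 3 fell, with a median log2 fold change of 0.17. Mcm4, a subunit of the replicative helicase, was at 25.3, 26.3 and 25.9 FPKM in NC and 21.2, 19.4 and 20.6 FPKM in FFA (log2 fold change -0.33 ± 0.0355, adjusted p = 0.000586). Each FFA library lay below each NC library. Mcm2, Mcm3, Mcm5, Mcm6 and Mcm7 fell too, with log2 fold changes of -0.14, -0.22, -0.18, -0.23 and -0.12, so that all 6 helicase subunits fell. The loader Cdc6 fell from 5.15 ± 0.0615 to 3.802 ± 0.243 FPKM, and cyclin E2 (Ccne2) from 3.25 ± 0.139 to 2.48 ± 0.103 FPKM. Cdt1, the partner of Cdc6, fell from 18.3 ± 0.976 to 16.2 ± 0.578 FPKM, a call lost without NC library 1 or 3 or FFA library 1 or 3 (0.0611 to 0.0726). That call was also lost with no filter on low values (0.074) and with the replicate number as a block (0.0545). Pcna, the polymerase clamp, went from 29.6 ± 0.743 to 28.1 ± 1.43 FPKM, Rrm1 from 13.2 ± 0.348 to 13.4 ± 0.0859 FPKM and Tyms from 6.71 ± 0.127 to 6.75 ± 0.472 FPKM, none past the threshold. With the filter raised to 5 FPKM, 11 replication genes fell of 21 left in the test.

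Ccnb2, a cyclin of entry into mitosis, was at 32.7, 32.5 and 32.5 FPKM in NC and 42.7, 41.8 and 39.6 FPKM in FFA (log2 fold change 0.34 ± 0.0303, adjusted p = 0.000266). Mki67, the Ki-67 protein that coats mitotic chromosomes, was at 19.2, 20.4 and 19.4 FPKM in NC and 23.9, 23.5 and 24.4 FPKM in FFA (log2 fold change 0.27 ± 0.0296, adjusted p = 0.000601). In both the FFA libraries were the higher ones with no overlap. Cdc25c, the phosphatase that starts mitosis, rose from 3.02 ± 0.157 to 4.13 ± 0.0658 FPKM, Cdc20 from 23.1 ± 1.52 to 28.2 ± 1.36 FPKM and Bub1b, a checkpoint kinase, from 17.6 ± 1.16 to 21.01 ± 0.433 FPKM. Of the 31 tested members 3 fell: Kif23 (14.03 to 12.6 FPKM), the inhibitor Cdkn2b (36.1 to 30.8 FPKM) and cyclin D1. Ccnd1, cyclin D1, the growth factor sensor of the G1 phase, was at 158, 160.5 and 164 FPKM in NC and 109, 111 and 109.9 FPKM in FFA (log2 fold change -0.54 ± 0.0213, adjusted p = 6.43e-06). All its FFA libraries lay well below the lowest NC library. Top2a (29.4 to 29.03 FPKM), Ube2c (31.8 to 31.3 FPKM) and Cdk1 (17.6 to 18.8 FPKM) did not pass.

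**Figure D4:**
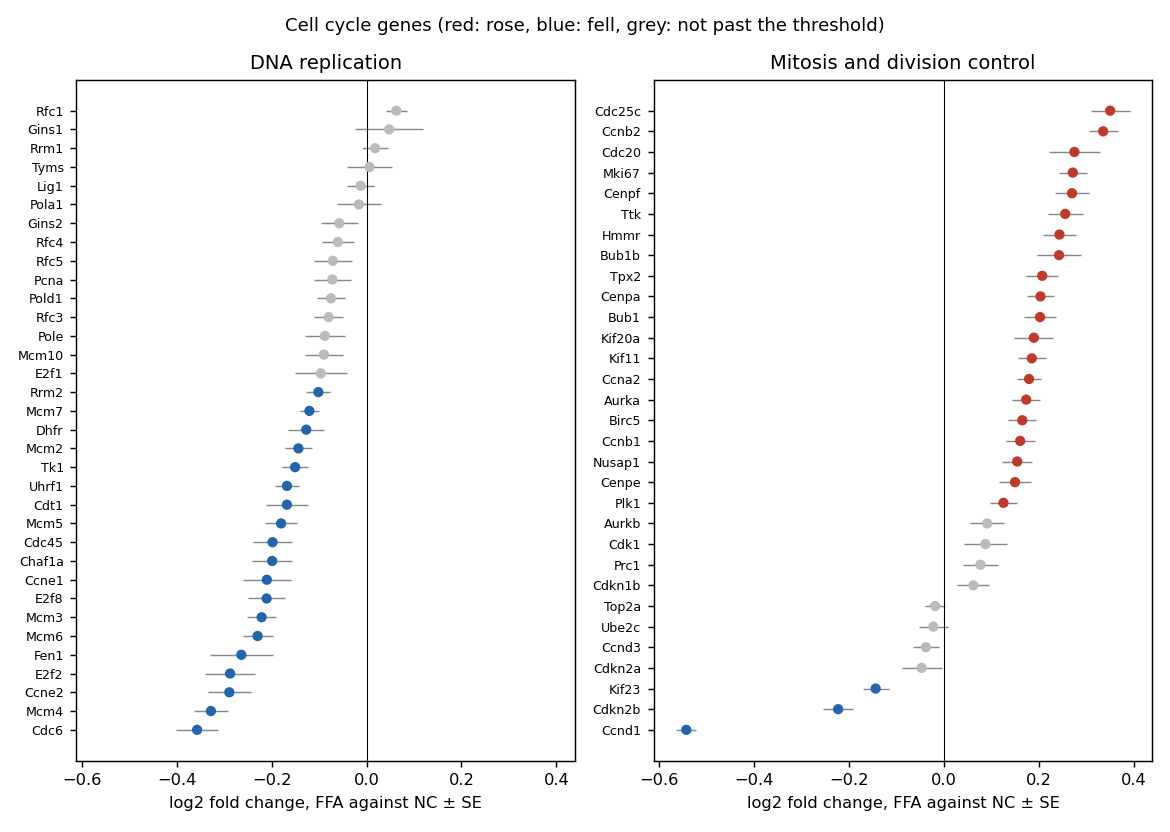
Log2 fold changes, FFA against NC, of the 34 tested DNA replication genes (left) and the 31 tested mitosis and division genes (right), with bars of ± 1 standard error; red rose, blue fell, grey did not pass. On the left 19 points are blue and none red, on the right 20 are red and 3 blue, with Ccnd1 at -0.54 the lowest.

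Mitotic genes commonly carry a cell cycle homology region (CHR, letters TTTGAA) with CCAAT boxes nearby, and replication genes an E2F site. The promoters of Ccnb2 (chr9:70421505-70421804, minus strand) and Mki67 (chr7:135716330-135716629, minus strand) are shown as examples of the former, from RefSeq on GRCm38.p6 and in the same window as above. They were chosen after the values were seen. Capitals mark TTTGAA and CCAAT on either strand.
Ccnb2: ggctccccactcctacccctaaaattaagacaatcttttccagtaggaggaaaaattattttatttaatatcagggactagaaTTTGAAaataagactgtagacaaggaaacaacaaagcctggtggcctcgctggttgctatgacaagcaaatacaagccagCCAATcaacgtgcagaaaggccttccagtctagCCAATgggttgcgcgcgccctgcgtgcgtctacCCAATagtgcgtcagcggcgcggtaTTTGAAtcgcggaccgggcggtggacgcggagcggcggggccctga
Mki67: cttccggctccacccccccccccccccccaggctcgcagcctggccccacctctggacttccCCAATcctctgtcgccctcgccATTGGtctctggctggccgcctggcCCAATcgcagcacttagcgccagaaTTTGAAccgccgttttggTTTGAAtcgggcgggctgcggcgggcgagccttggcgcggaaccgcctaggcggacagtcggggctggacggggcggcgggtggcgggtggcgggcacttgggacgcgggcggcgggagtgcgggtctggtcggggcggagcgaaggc

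TTTGAA stood in 11 of 16 promoters of mitosis genes that rose (68.8%), in 5 of 20 promoters of replication genes that fell (25%) and in 12.1% of the promoters of tested genes. The E2F letters GGCGGGAA stood in 0 of the 16 and in 3 of the 20 (15%), against 4.14% of the promoters of tested genes. CCAAT stood in 14 of 16 and 14 of 20. The genes matched to a promoter were 16 of the 20 mitosis genes and 16 of the 19 replication genes. The letters describe these windows and were not tested as sites.

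Growth factor signalling genes fell together. Of ERK feedback genes and growth factor ligands, 1 of 25 tested members rose and 17 fell, with a median log2 fold change of -0.21. Hbegf, a membrane-anchored EGF ligand, was at 16.01, 15.9 and 15.4 FPKM in NC and 9.93, 9.78 and 10.1 FPKM in FFA (log2 fold change -0.62 ± 0.0268, adjusted p = 9.95e-06). Areg, amphiregulin, was at 46.9, 48.99 and 46.3 FPKM in NC and 33.8, 33.1 and 32.9 FPKM in FFA (log2 fold change -0.50 ± 0.0275, adjusted p = 2.71e-05). Neither gene's groups overlapped. Ereg fell from 8.004 ± 0.0425 to 5.95 ± 0.04 FPKM, Tgfa from 15.2 ± 0.201 to 11.3 ± 0.153 FPKM and Btc from 3.66 ± 0.109 to 2.66 ± 0.0813 FPKM, and their receptor Egfr from 12.9 ± 0.437 to 9.91 ± 0.374 FPKM. For Tgfa the labels do not say how reads from the human transgene were treated. Dusp6, the ERK phosphatase and standard readout of ERK activity, fell from 51.1 ± 0.793 to 38.2 ± 0.684 FPKM (log2 fold change -0.41 ± 0.0233, adjusted p = 3.05e-05). Met, the hepatocyte growth factor receptor, went from 39.5 ± 0.414 to 38.02 ± 0.428 FPKM and Dusp4 from 31.8 ± 1.66 to 32.7 ± 1.197 FPKM, both short of the threshold. Spred3, another ERK inhibitor, went from 3.11 ± 0.19 to 3.605 ± 0.15 FPKM (log2 fold change 0.16 ± 0.0484, adjusted p = 0.0376), a rise lost on leaving out any library but NC 3 (0.0576 to 0.107). The rise was lost as well with no filter on low values (0.11) and with the replicate number as a block (0.0828).

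Immediate early genes, the transcription factors that follow ERK and serum response factor, fell most often: 2 of 22 tested members rose and 17 fell, with a median log2 fold change of -0.33. The 17 include 1 that passed the filter only through its NC level, a call that the filter itself favours. Ccn1, a secreted matrix protein and early YAP and serum response target, was at 32.1, 33.6 and 34.4 FPKM in NC and 18.2, 18.9 and 17.9 FPKM in FFA (log2 fold change -0.83 ± 0.0333, adjusted p = 6.86e-06). Its relative Ccn2 was at 37.6, 38.5 and 37.1 FPKM in NC and 48.3, 50.98 and 49.8 FPKM in FFA and rose (log2 fold change 0.39 ± 0.0275, adjusted p = 8.64e-05). The 2 genes, often read as joint targets of YAP, thus moved in opposite directions. Junb fell from 169 ± 7.11 to 126 ± 1.56 FPKM, Fosl1 from 3.54 ± 0.102 to 2.09 ± 0.387 FPKM and Klf5 from 25.8 ± 0.868 to 20.2 ± 0.256 FPKM. Klf10, a TGF beta response gene, was the other that rose, from 11.2 ± 0.255 to 13.999 ± 0.171 FPKM.

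Among matrix, YAP and TGF beta genes 4 of 35 tested members rose and 19 fell, with a median log2 fold change of -0.17. Ccn1, which fell, and Ccn2, which rose, were counted with the immediate early genes above and not here. On leaving out any library but NC 2, with no filter on low values or with no variance trend 2 rose in place of 4. Id3, an inhibitor of basic helix-loop-helix factors and a BMP target, was at 66.9, 64.1 and 68.5 FPKM in NC and 34.2, 33.3 and 32.7 FPKM in FFA (log2 fold change -0.97 ± 0.0311, adjusted p = 2.78e-06). Id1 fell from 407 ± 16.3 to 283 ± 1.17 FPKM and Id2 from 207 ± 2.504 to 178 ± 2.64 FPKM. The inhibitory Smads, Smad6 and Smad7, fell from 6.89 ± 0.295 to 4.701 ± 0.245 FPKM and from 13.2 ± 0.38 to 8.63 ± 0.114 FPKM. Ankrd1, a YAP target, fell from 55.3 ± 0.169 to 29.2 ± 0.765 FPKM and Plaur, the urokinase receptor, from 101 ± 0.978 to 57.7 ± 0.116 FPKM. Timp2, a metalloproteinase inhibitor, fell from 240.1 ± 3.32 to 165 ± 1.75 FPKM, while Loxl2, a collagen crosslinker, rose from 9.68 ± 0.211 to 12.5 ± 0.684 FPKM. Fn1 (36.6 to 35.7 FPKM) and the collagens Col4a1 (39.1 to 38.3 FPKM) and Col4a2 (40.7 to 42.01 FPKM) did not pass.

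Chemokines and cytokines moved only downward among the genes called: 0 of 21 tested members rose and 13 fell, with a median log2 fold change of -0.23. Cxcl5, a neutrophil chemokine and the most abundant of the list, was at 2289, 2188 and 2131 FPKM in the NC libraries and 1769.5, 1704 and 1771 FPKM in the FFA libraries (log2 fold change -0.33 ± 0.0317, adjusted p = 0.000338), the largest loss in FPKM of any gene. Cx3cl1, fractalkine, was at 4.66, 4.699 and 4.58 FPKM in NC and 2.47, 2.47 and 2.38 FPKM in FFA (log2 fold change -0.71 ± 0.0346, adjusted p = 1.52e-05). Each FFA library lay under each NC library in both. Ccl9 fell from 35.4 ± 1.25 to 26.05 ± 0.337 FPKM, Csf1, the macrophage growth factor, from 80.2 ± 1.81 to 62.6 ± 1.81 FPKM, and Il15 from 2.55 ± 0.216 to 1.39 ± 0.193 FPKM. Csf3 (14.2 to 15.2 FPKM), Cxcl2 (3.09 to 3.08 FPKM) and Il34 (5.69 to 5.69 FPKM) did not pass. Macrophage markers summed lower in FFA by the values above. The 2 that reached 1 FPKM differed: Lyz2 fell from 3.93 ± 0.339 to 2.57 ± 0.506 FPKM, and Cd68 (2.19 to 2.21 FPKM) did not pass. Any part of macrophages in the chemokine result was not tested.

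In the NF-kB list 1 of 24 tested members rose and 12 fell, with a median log2 fold change of -0.12. Tnfaip2, a TNF-induced protein, was at 28.3, 28.5 and 29.1 FPKM in NC and 17.1, 17.3 and 16.5 FPKM in FFA (log2 fold change -0.72 ± 0.0256, adjusted p = 4.12e-06). Ptgs2, inducible cyclooxygenase, fell from 12.5 ± 0.0894 to 6.76 ± 0.26 FPKM and Nos2, inducible nitric oxide synthase, from 16.4 ± 0.525 to 9.68 ± 0.443 FPKM. The inhibitor Nfkbia fell by less (77.3 to 71.6 FPKM), a call lost without NC library 2 or NC library 3 (0.0521 and 0.0673). Nfkbia lost its call with no filter on low values too (0.0541). The subunits Rela (39.9 to 36.4 FPKM) and Nfkb2 (32.7 to 34.6 FPKM) did not pass. Ripk2, a kinase of bacterial sensing, went from 2.56 ± 0.0569 to 3.28 ± 0.331 FPKM, the only member that rose, a call lost with no filter on low values (adjusted p = 0.0577). Complement and acute phase genes leaned the same way (3 of 18 rose and 7 fell), with 5 that rose when no filter was set. Lbp, the lipopolysaccharide carrier, fell from 536 ± 10.4 to 397 ± 2.27 FPKM. Hp, haptoglobin, went the opposite way, from 5.12 ± 0.208 to 10.5 ± 0.322 FPKM (log2 fold change 0.91 ± 0.0373, adjusted p = 7.88e-06), and C3 (476 to 485 FPKM) and Lcn2 (232 to 226 FPKM) did not pass. Interferon and MHC genes had no common direction, as 3 of 17 rose and 4 fell, 1 of the 4 having passed the filter only through its NC level.

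Several of the lowest fold changes belonged to genes known from squamous, mucosal or gut epithelium, a grouping made after the values were seen. Krt4, a keratin of internal squamous linings, was at 55.4, 55.3 and 56.5 FPKM in the NC libraries and 4.74, 4.08 and 5.12 FPKM in the FFA libraries (log2 fold change -3.33 ± 0.0637, adjusted p = 3.61e-07). Sprr2a3, a cornified envelope protein from a family of near-identical copies, was at 8.07, 8.53 and 9.14 FPKM in NC and 0.723, 0.693 and 0.825 FPKM in FFA (log2 fold change -2.45 ± 0.0547, adjusted p = 7.55e-07). Pigr, the receptor that carries antibodies across mucosa and into bile, was at 47.7, 49.3 and 47.9 FPKM in NC and 8.28, 8.74 and 8.59 FPKM in FFA (log2 fold change -2.37 ± 0.0278, adjusted p = 8.74e-08). In these 3 genes the FFA values were far below the NC values in every library. Sprr2a3, below 1 FPKM in FFA, passed the filter only through its NC level, and its call is one that the filter itself favours. Ltf (lactoferrin) fell from 30.9 ± 0.287 to 9.45 ± 0.258 FPKM, Scgb3a1, an airway secretory protein, from 42.9 ± 2.73 to 13.5 ± 1.15 FPKM, and Itln1, an intestinal lectin, from 9.86 ± 0.464 to 2.78 ± 0.397 FPKM. Muc13, a membrane mucin, fell from 15.8 ± 0.182 to 4.83 ± 0.143 FPKM, Sycn, a protein of exocrine granules, from 54.6 ± 1.49 to 18.9 ± 0.919 FPKM, and Cd177, a surface protein best known from neutrophils, from 30.2 ± 0.678 to 9.39 ± 0.504 FPKM.

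**Figure D5:**
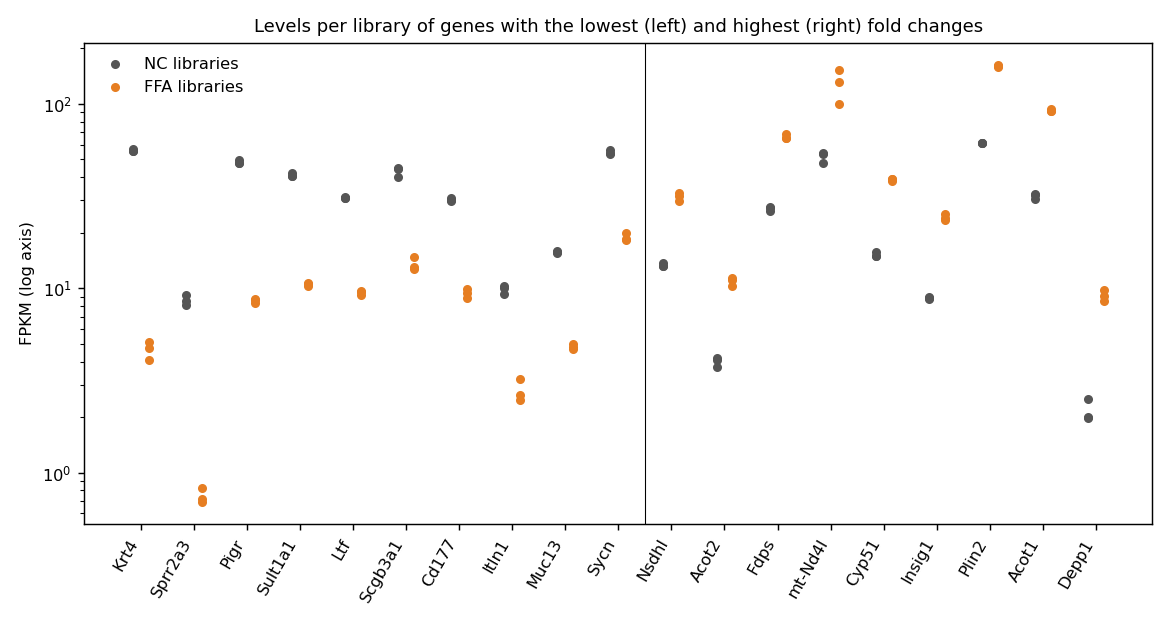
FPKM of each library on a logarithmic axis for the 10 genes with the lowest (left) and 9 of the 10 with the highest log2 fold changes (right), as chosen for naming; dark points are NC, orange points FFA. The choice itself required that the groups do not overlap. The widest spread within a group on the right is that of mt-Nd4l in FFA, given with its values below.

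Further genes known from intestinal epithelium fell as well, and these too were picked after their values were seen. Lgals4, a gut galectin, fell from 224 ± 11.2 to 114 ± 3.37 FPKM, Cyp2c65 from 21.95 ± 0.421 to 7.24 ± 0.345 FPKM and Cyp2c55 from 19.2 ± 0.613 to 9.51 ± 0.764 FPKM. The other Cyp2c genes that were tested did not fall, while Cyp2c66, below the filter and not tested, was lower in FFA (0.508 to 0.096 FPKM). Cyp2c68 rose from 54.4 ± 3.62 to 75.3 ± 2.06 FPKM and Cyp2c67 from 6.81 ± 0.0335 to 10.1 ± 0.443 FPKM, while Cyp2c23 and Cyp2c40 did not pass. Spink4, from goblet cells, fell from 12.1 ± 1.48 to 4.81 ± 0.66 FPKM, and Gpa33, a gut surface antigen that passed the filter only through its NC level, from 3.84 ± 0.286 to 0.884 ± 0.135 FPKM. The whole lists were less uniform. Of keratins and squamous genes 3 of 16 tested members rose and 10 fell, with a median log2 fold change of -0.14, and of mucosal defence genes 2 of 15 tested members rose and 8 fell, with a median log2 fold change of -0.13. Without FFA library 3, and with no filter on low values, 1 member of the keratin list rose in place of 3. The keratins of simple epithelium fell little: Krt8 from 1420.01 ± 6.44 to 1258 ± 11.02 FPKM, Krt18 from 1330.4 ± 24.2 to 1260.3 ± 7.62 FPKM and Krt19 from 1352 ± 33.1 to 1258 ± 9.57 FPKM. The Krt18 call was lost on leaving out any library but NC 2 (0.0648 to 0.0817) and the Krt19 call without FFA library 1 (0.0507). Krt18 lost its call with no variance trend too (0.0637). With no filter on low values none of these 3 keratins passed (0.0581 for Krt8, 0.387 for Krt18 and 0.257 for Krt19). Krt7 fell further, from 113 ± 2.75 to 66.6 ± 0.594 FPKM (log2 fold change -0.75 ± 0.0237, adjusted p = 2.73e-06). Wfdc2 (378 to 395 FPKM), Elf3 (26.1 to 26.6 FPKM) and Sprr1a (165 to 181 FPKM) did not pass, and Ehf, an epithelial transcription factor, rose from 34.6 ± 0.386 to 43.8 ± 0.955 FPKM. Sprr1b went from 1.16 ± 0.125 to 1.55 ± 0.167 FPKM, a rise lost on leaving out any library but FFA 2 (0.0521 to 0.13). Sprr1b also did not pass with no filter on low values (0.144) or with the replicate number as a block (0.0834). The same held after removing trends on length and GC content (0.0585).

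Of biliary and progenitor markers 1 of 12 tested members rose and 5 fell, with a median log2 fold change of -0.078, and 2 rose without NC library 1. Sox9, the transcription factor of the bile duct lineage, was at 11.7, 13.5 and 12.7 FPKM in NC and 20.1, 22.6 and 21.6 FPKM in FFA and rose without overlap (log2 fold change 0.72 ± 0.0582, adjusted p = 0.000164). Tnfrsf12a, the TWEAK receptor, fell from 70.7 ± 1.43 to 49.9 ± 1.15 FPKM and Itgb4 from 26.1 ± 0.769 to 20.8 ± 0.45 FPKM. Epcam was at 0 in all 6 libraries, and Spp1 (402 to 417 FPKM) did not pass. Of hepatocyte genes 5 of 17 tested members rose and 3 fell, with a median log2 fold change of 0.017. Without FFA library 2, and with no filter, 5 fell in place of 3. Trf, transferrin, was at 475, 474 and 474 FPKM in NC and 778, 774 and 762 FPKM in FFA (log2 fold change 0.70 ± 0.0177, adjusted p = 1.05e-06), and Ttr rose from 429 ± 10.5 to 558 ± 7.59 FPKM. Hnf4a, the leading hepatocyte factor, fell from 131 ± 0.556 to 118 ± 1.71 FPKM, and Ambp, a plasma protein precursor, from 16.3 ± 0.257 to 7.41 ± 0.165 FPKM (log2 fold change -1.04 ± 0.0275, adjusted p = 1.20e-06).

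Conjugating enzymes mostly fell while oxidising ones were mixed. In phase II 5 of 29 tested members rose and 15 fell, with a median log2 fold change of -0.22. Sult1a1, the phenol sulfotransferase, was at 41.8, 40.4 and 40.6 FPKM in NC and 10.3, 10.6 and 10.5 FPKM in FFA (log2 fold change -1.87 ± 0.0246, adjusted p = 8.74e-08). Gstm1, the most abundant of the glutathione transferases here, was at 775, 782 and 796 FPKM in the NC libraries and 506, 524 and 509 FPKM in the FFA libraries (log2 fold change -0.61 ± 0.0217, adjusted p = 4.12e-06). The cytosolic transferases Gsta1, Gsta2, Gsta3, Gsta4, Gstm2, Gstm3, Gstm7, Gsto1 and Gstp1 fell too, from -0.37 for Gstp1 to -1.14 for Gstm3 on the log2 scale. The membrane-bound ones went up, Mgst1 from 64.9 ± 1.701 to 89.1 ± 1.52 FPKM and Mgst3 from 101 ± 4.92 to 116 ± 0.338 FPKM. The glucuronosyl transferases Ugt2b34, Ugt2b35 and Ugt2b36 fell from 268 ± 4.35 to 207 ± 0.995 FPKM, from 47.4 ± 1.53 to 34.4 ± 0.244 FPKM and from 162 ± 3.29 to 122 ± 3.37 FPKM. These families share sequence, and the labels do not say how reads matching several members were counted.

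In phase I 10 of 20 tested members rose and 6 fell, with a median log2 fold change of 0.10. Cyp39a1, an oxysterol hydroxylase of bile acid synthesis, was at 18.9, 18.8 and 18.98 FPKM in NC and 30.3, 29.8 and 30.1 FPKM in FFA (log2 fold change 0.64 ± 0.0204, adjusted p = 2.73e-06). Cyp2b10, the standard target of the xenobiotic receptor CAR, was at 4.703, 4.75 and 4.71 FPKM in NC and 1.91, 2.09 and 1.64 FPKM in FFA (log2 fold change -0.99 ± 0.0613, adjusted p = 4.46e-05). The groups were apart in both, in opposite directions. Aldh1a7 rose from 17.3 ± 0.41 to 27.03 ± 0.732 FPKM and Por, the electron donor of the P450 enzymes, from 80.8 ± 0.355 to 93.5 ± 1.795 FPKM, while Cyp2d26 fell from 41.99 ± 0.974 to 28.5 ± 0.84 FPKM and Cyp2s1 from 79.1 ± 0.811 to 53.4 ± 2.26 FPKM. Of all cytochromes P450 tested, 9 of 27 rose and 11 fell, and with the filter at 5 FPKM 6 fell. These calls include 2 that passed the filter through 1 group only. Cyp1a1 rose from 0.888 to 1.51 FPKM and Cyp2d34 fell from 1.89 to 0.63 FPKM. The filter itself favours such calls, and Cyp1a1 is also among the 10 of phase I that rose.

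Genes of the antioxidant factor NRF2 moved in both directions. Of the NRF2 list, 14 of 33 tested members rose and 10 fell, with a median log2 fold change of 0.053. Ftl1, the ferritin light chain, was at 798, 800.3 and 795 FPKM in the NC libraries and 1181, 1221 and 1146 FPKM in the FFA libraries, the largest gain in FPKM among nuclear genes (log2 fold change 0.57 ± 0.026, adjusted p = 1.22e-05). Hmox1, heme oxygenase, rose from 24.9 ± 0.994 to 39.2 ± 1.504 FPKM, Blvrb, the next enzyme of heme breakdown, from 11.9 ± 0.564 to 15.5 ± 0.36 FPKM, and G6pdx from 24.8 ± 0.794 to 31.4 ± 0.569 FPKM. Gclc and Gclm, the subunits of the enzyme that limits glutathione synthesis, fell from 287 ± 1.27 to 251 ± 0.563 FPKM and from 59.9 ± 0.316 to 51.4 ± 1.46 FPKM. Slc7a11, the cystine carrier, fell from 4.37 ± 0.124 to 3.603 ± 0.0609 FPKM, Srxn1, sulfiredoxin, from 37.1 ± 0.522 to 31.8 ± 0.461 FPKM, and Txnrd1, thioredoxin reductase, from 49.6 ± 0.954 to 38.9 ± 0.384 FPKM (log2 fold change -0.34 ± 0.0226, adjusted p = 6.18e-05). Nfe2l2, which encodes NRF2, was at 68.4, 69.7 and 68.2 FPKM in NC and 66.2, 69.5 and 68.7 FPKM in FFA and did not pass (adjusted p = 0.72). For iron and metals 10 of 20 tested members rose and 3 fell, with a median log2 fold change of 0.099. Tfrc, the transferrin receptor, fell from 22.2 ± 0.621 to 15.7 ± 0.416 FPKM (log2 fold change -0.47 ± 0.0309, adjusted p = 5.69e-05), while Slc40a1, the iron exporter ferroportin, rose from 10.9 ± 0.262 to 13.2 ± 0.132 FPKM and Tfr2 from 1.36 ± 0.0418 to 2.05 ± 0.114 FPKM. The zinc importer Slc39a4 fell from 196 ± 2.79 to 150.4 ± 2.53 FPKM, and Mt1 (139 to 137 FPKM) did not pass.

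Protein folding and protein breakdown genes moved apart. Of endoplasmic reticulum chaperones and stress sensors 2 of 29 tested members rose and 14 fell, with a median log2 fold change of -0.086. Hspa5, the chaperone BiP, was at 228, 230.5 and 226 FPKM in the NC libraries and 178, 175 and 176 FPKM in the FFA libraries (log2 fold change -0.37 ± 0.0182, adjusted p = 1.60e-05). Sdf2l1, its cofactor, fell from 54.9 ± 1.78 to 36.5 ± 3.38 FPKM and Hyou1, its exchange factor, from 19.2 ± 0.489 to 15.3 ± 0.339 FPKM. Pdia3 (296 to 262 FPKM) and Pdia6 (78.3 to 69.2 FPKM) were among the other falls, and Xbp1 (71.6 to 74.01 FPKM), Ern1 (6.95 to 6.61 FPKM) and Ddit3 (4.596 to 4.56 FPKM) did not pass. With no filter on low values 8 members fell in place of 14, and 1 rose in place of 2 in that setting, with no variance trend and on leaving out any library but FFA 3. Derl1, a channel for misfolded proteins, rose from 53.7 ± 0.877 to 63.02 ± 0.621 FPKM.

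Among proteasome subunits 23 of 35 tested members rose and 1 fell, with a median log2 fold change of 0.13. Psma4, of the core particle, was at 35.2, 34.8 and 34.2 FPKM in NC and 41.6, 40.5 and 41.1 FPKM in FFA (log2 fold change 0.24 ± 0.0223, adjusted p = 0.000325), and Psmb7 rose from 26.1 ± 0.571 to 29.8 ± 0.501 FPKM. Psmb10, the immunoproteasome subunit, fell from 11.9 ± 0.215 to 9.03 ± 0.474 FPKM (log2 fold change -0.36 ± 0.0388, adjusted p = 0.000578). With no filter 15 subunits rose. In lysosome and autophagy 25 of 41 tested members rose and 1 fell, with a median log2 fold change of 0.18. Lamp2, a protein of the lysosomal membrane, was at 39.8, 39.7 and 38.7 FPKM in NC and 53.7, 51.3 and 51.98 FPKM in FFA (log2 fold change 0.40 ± 0.025, adjusted p = 4.73e-05), with every FFA library above every NC library. Lipa, the acid lipase that frees sterol and fatty acid from droplets and lipoproteins, rose from 31.97 ± 0.38 to 40.2 ± 0.381 FPKM. Their regulators Tfeb (3.73 to 3.85 FPKM) and Tfe3 (7.97 to 8.07 FPKM) did not pass, and Tax1bp1, an autophagy receptor, fell from 31.1 ± 0.472 to 28.6 ± 0.365 FPKM.

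Amino acid genes rose in part. For serine, asparagine and one-carbon genes 9 of 16 tested members rose and 3 fell, with a median log2 fold change of 0.14. Asns, asparagine synthetase, was at 34.5, 34.4 and 34.6 FPKM in NC and 56.4, 57.5 and 55.4 FPKM in FFA (log2 fold change 0.69 ± 0.0214, adjusted p = 2.54e-06). Phgdh, Psat1 and Psph, the consecutive steps from glycolysis to serine, rose from 168 ± 2.66 to 218 ± 3.82 FPKM, from 89.5 ± 2.23 to 133 ± 3.04 FPKM and from 5.49 ± 0.212 to 7.88 ± 0.255 FPKM. Among ATF4 regulators 6 of 18 tested members rose and 3 fell, with a median log2 fold change of 0.033. Atf5 rose from 27.004 ± 1.33 to 39.8 ± 2.596 FPKM, Trib3 from 14.4 ± 0.817 to 19.1 ± 0.319 FPKM and Chac1 from 5.997 ± 0.675 to 9.54 ± 0.3 FPKM, but Gdf15, a stress hormone also driven by ATF4, fell from 12.5 ± 0.0696 to 7.26 ± 0.579 FPKM (log2 fold change -0.71 ± 0.0506, adjusted p = 8.74e-05), and Atf4 itself was at 98.4, 98.6 and 98.9 FPKM in NC and 99.8, 97.8 and 99.3 FPKM in FFA, with overlapping groups. Of aminoacyl-tRNA synthetases 8 of 19 rose and 0 fell, led by Sars from 41.4 ± 0.727 to 52.7 ± 1.32 FPKM. For amino acid transporters 7 of 17 rose and 5 fell, with Slc1a5 at 25.8 to 32.3 FPKM and the cystine carrier Slc7a11 given above. Without NC library 2, FFA library 1 or FFA library 2, 3 transporters fell.

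Glucose genes had opposite ends. Over uptake and glycolysis 10 of 21 tested members rose and 4 fell, with a median log2 fold change of 0.079, and with the filter at 5 FPKM 2 fell. Slc2a1, the main glucose transporter of cultured cells, was at 30.7, 31.8 and 31.8 FPKM in NC and 23.6, 22.7 and 23.1 FPKM in FFA (log2 fold change -0.43 ± 0.0261, adjusted p = 4.38e-05). Pfkfb3, the activator of phosphofructokinase, fell from 2.42 ± 0.0733 to 1.35 ± 0.117 FPKM. Pfkm rose from 70.4 ± 0.822 to 86.5 ± 1.302 FPKM and Pkm from 459 ± 10.05 to 509 ± 3.38 FPKM. Txnip, which restrains glucose uptake, was at 9.19, 8.77 and 9.42 FPKM in NC and 18.5, 18.3 and 17.6 FPKM in FFA and rose (log2 fold change 0.92 ± 0.0344, adjusted p = 5.00e-06). Depp1, a FOXO target, rose from 2.16 ± 0.294 to 9.14 ± 0.626 FPKM (log2 fold change 1.68 ± 0.0749, adjusted p = 1.09e-05), while the FOXO genes Foxo1 (4.11 to 3.901 FPKM) and Foxo3 (7.05 to 6.997 FPKM) did not pass and Klf15 fell from 11.1 ± 0.478 to 8.44 ± 0.104 FPKM. Over the fasting and FOXO list 3 of 15 rose and 3 fell, and over hypoxia targets 4 of 15 rose and 3 fell, among them Bnip3, a mitophagy receptor, which rose from 12.4 ± 0.427 to 16.3 ± 0.629 FPKM. These shares lie close to the 17.2% of all genes, except that of the hypoxia targets that rose, which lies above it.

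Mitochondrial genes rose by small amounts. Of nuclear-encoded respiratory chain subunits 35 of 79 tested members rose and 1 fell, with a median log2 fold change of 0.13. The 1 that fell, Ndufb2 (1.24 to 0.898 FPKM), passed the filter only through its NC level, and lost its call without NC library 1 or any 1 FFA library (0.0795 to 0.0971) and with no filter (0.122). Cyc1, cytochrome c1, was at 101, 100.2 and 101 FPKM in NC and 117, 117 and 118 FPKM in FFA (log2 fold change 0.22 ± 0.0173, adjusted p = 0.000148). Of mitochondrial ribosomal proteins 23 of 78 tested members rose and 0 fell, with a median log2 fold change of 0.082, and 15 rose when FFA library 2 or FFA library 3 was left out and 13 with no filter. Of mitochondrially encoded messages 8 of 13 tested members rose and 0 fell, with a median log2 fold change of 0.27, but 3 rose with no filter on low values. mt-Cytb was at 5128, 5093 and 5066 FPKM in the NC libraries and 6219, 6260 and 6369.7 FPKM in the FFA libraries (log2 fold change 0.30 ± 0.0203, adjusted p = 6.56e-05), a rise that did not pass with no filter (0.243). mt-Nd4l was at 53.3, 47.5 and 53.7 FPKM in the NC libraries and 131, 151 and 99.8 FPKM in the FFA libraries, a wide spread within FFA (log2 fold change 1.27 ± 0.14, adjusted p = 0.000627), and the gene overlaps mt-Nd4. mt-Co2 and mt-Co3 did not pass at 202 to 205 FPKM and 168 to 171 FPKM, far below mt-Co1 at 10885 to 11825 FPKM. Gapdh, usually among the most abundant messages, was listed at 6.18 to 5.61 FPKM, and levels of genes with copies elsewhere in the genome are uncertain in this table.

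Of cytosolic ribosomal proteins 14 of 79 tested members rose and 3 fell, with a median log2 fold change of 0.067. The number that rose depended on the setting: it was 4 without NC library 2, 5 without FFA library 1 or FFA library 3, 5 with no variance trend and 3 with no filter on low values. The number that fell was 1 without NC library 3, without FFA library 1 or with no filter. Rps27a went from 155 ± 25.9 to 88.3 ± 23.2 FPKM (log2 fold change -0.82 ± 0.191, adjusted p = 0.0155). That call was lost without NC library 3 or FFA library 1 (0.0519 and 0.0513) and with no filter on low values (0.0684). The gene has many pseudogenes. Of noncoding hosts of small nucleolar RNAs and nuclear RNAs 1 of 12 tested members rose and 8 fell, with a median log2 fold change of -0.24. Gas5 fell from 28.9 ± 1.896 to 22.6 ± 1.31 FPKM and Snhg6 from 9.097 ± 0.611 to 7.06 ± 0.149 FPKM, and Neat1, the scaffold of paraspeckles, rose from 38.3 ± 0.618 to 42.9 ± 0.242 FPKM. Without NC library 1 or FFA library 2, or with no filter, 5 fell, and without FFA library 1, 2 rose. Histones rose in 11 of 27 tested members and fell in 0. Of the 11, 4 (Hist1h1d, Hist1h2bh, Hist1h3g and Hist1h3i) had an NC mean below 1 FPKM. They passed the filter only through their FFA level, and their calls are ones that the filter itself favours. H1f0, a linker histone of resting cells and the one with the smallest adjusted p, rose from 289 ± 0.32 to 438 ± 4.1003 FPKM (log2 fold change 0.60 ± 0.0174, adjusted p = 1.96e-06). Without 1 library (NC 2, FFA 1, FFA 2 or FFA 3 in turn), and with no filter, 6 or 7 rose.

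Clock, survival and heat shock genes complete the lists. For the clock, 1 of 16 tested members rose and 11 fell, with a median log2 fold change of -0.16. Dbp, an output factor of the clock, was at 10.4, 10.5 and 10.5 FPKM in NC and 6.48, 6.63 and 6.84 FPKM in FFA (log2 fold change -0.58 ± 0.0288, adjusted p = 1.60e-05), and Per2 fell from 12.9 ± 0.344 to 9.23 ± 0.11 FPKM while Bhlhe40 rose from 29.4 ± 0.375 to 35.2 ± 1.01 FPKM. Clock (5.55 to 5.65 FPKM) and Arntl (4.09 to 3.77 FPKM) did not pass. Of p53 targets and BCL2 family genes 4 of 39 tested members rose and 17 fell, with a median log2 fold change of -0.077. The 17 include 1 that passed the filter only through its NC level, a call that the filter itself favours. Plk2 fell from 62.1 ± 1.12 to 38.1 ± 1.55 FPKM and Phlda3 from 69.9 ± 2.42 to 52.8 ± 1.03 FPKM, both p53 targets, as did Mdm2 (37.98 to 26.6 FPKM), Cdkn1a (62.1 to 50.1 FPKM) and Trp53 itself (42.6 to 36.6 FPKM), while Bax (49.1 to 50.3 FPKM) and Pmaip1 (34.3 to 33.2 FPKM) did not pass. The antiapoptotic Bcl2l1 and Mcl1 fell from 61.3 ± 2.13 to 46.1 ± 1.23 FPKM and from 64.9 ± 0.882 to 55.2 ± 1.01 FPKM, and the proapoptotic Bak1 and Bid rose from 22.9 ± 0.319 to 26.9 ± 1.43 FPKM and from 20.7 ± 0.658 to 24.2 ± 0.594 FPKM. Of heat shock genes 4 of 17 rose and 3 fell, shares near the background. Of 241 zinc finger genes named Zfp 22 rose and 25 fell (19.5% called). That is fewer than the 34.4% of all tested genes and near the 21.4% of genes with a mean of 1 to 5 FPKM. Of 163 solute carriers 45 rose and 43 fell, and 3 of these calls (1 rose and 2 fell) passed the filter through 1 group only. With no filter 14 Zfp genes rose and 27 solute carriers fell, and with a filter at 5 FPKM 14 Zfp genes rose, 15 fell and 24 solute carriers fell.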

How the data were processed

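Total RNA of 6 AML12 libraries, 3 NC and 3 FFA, was compared. A mirVana kit was used for extraction and a TruSeq stranded total RNA kit for the libraries, after a check of RNA integrity, per the labels' protocols. Trimmomatic, HISAT2 and GRCm39 are named per the submitters' processing notes. Tool versions and how reads were counted, on which annotation and with which strand option, are not given in the sources. Thus overlapping genes, antisense pairs and gene copies are uncertain. The deposited values are FPKM, made by the authors. The table does not name this unit, which was inferred from the values: with gene lengths of the reference, 94.0% of 130709 values above 0 (and up to 0.5 FPKM) were whole reads within 0.01 reads. All 9 columns matched a sample.

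The test was limma 3.58.1 (R 4.3.3) on log2(FPKM + 1), fitting group means and a variance trend, for genes whose mean over the 6 libraries reached 1 FPKM. Its two-sided p-values were Benjamini-Hochberg adjusted over all 11673 genes, and 0.05 was taken as threshold. The count test planned for count tables was not used, since the values are not counts. Gene lists were described by counts and medians, with no set test. The fit was checked on simulated data. Symbols (28761 genes, 94.8%), lengths and GC content came from GENCODE vM21 by identifier, and promoters from the RefSeq table of GRCm38.p6. The authors' build differs, so no position of theirs is given. Tables were handled with pandas 2.3.3 and numpy 2.4.6 under Python 3.11.15, and plots with matplotlib 3.10.9.

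The genes, lists and tests were chosen with earlier results of these data known. Named genes were the 10 highest and 10 lowest fold changes with a regular symbol, no overlap and a higher group mean of 5 FPKM or more, the 5 largest gains and 5 largest losses in FPKM, and, of each list with 3 or more changed members, the 3 with the smallest adjusted p and the largest opposite change. Other list members, and the gut genes said to be so, were named after their values were seen. Some genes that these choices cover are not reported here, and the counts of their lists include them. Alternatives were another pseudocount, filter, scaling and variance model, removal of trends on length and GC content, a replicate block, and leaving out each library.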

Additional observations from a re-analysis of the deposited data

How the results depend on the processing

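Of the 284 called genes named or selected, 250 were tested in all 14 alternative settings, and 234 of these passed the threshold in each. The other 34 were below the filter in 1 or more settings, most often that at 5 FPKM. In all, 20 of the 284 lost their call in 1 or more settings that tested them, and 0 changed direction where tested. Many of the 284 were chosen for small p-values or large changes in these same libraries, so their share does not stand for all calls. Over all 4014 calls, 70.15% were kept with no filter on low values and 73.97% to 79.07% when 1 library was left out. The count of changed genes was 4014, and it was 3079 to 3383 when 1 library was left out, 3197 with no filter on low values and 3290 with a filter at 5 FPKM. The count of genes changed at least 2-fold was 54. It became 110 with a pseudocount of 0.1 FPKM and 35 with a filter at 5 FPKM, where fewer genes (7527) are tested, and was 50 to 57 when 1 library was left out. The median log2 fold change of the apolipoprotein list went from below 0 to 0.0951 with a filter at 5 FPKM, a change of sign. That of the amino acid transporters became -9.28e-05 with no filter. Same-numbered NC and FFA libraries deviated together hardly or not at all (correlations 0.0025, 0.0747 and 0.0064), and not every library correlated best with its own number. With the replicate number as a block 3795 genes were called, of which 3517 were shared with the 4014. Under that block 22 cytosolic ribosomal proteins rose in place of 14, 5 hepatocyte genes fell in place of 3, 1 endoplasmic reticulum gene rose in place of 2, 0 growth factor signalling genes rose in place of 1, and 0 respiratory chain subunits fell in place of 1. At a mean of 1 to 5 FPKM 21.4% of genes were called, and the part of depth in that share was not tested. Differences under the limit of 3 reads were not detectable.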
